A study of Mus musculus with 2 samples.

Results

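The barcodes described here are the T cell and NK cell barcodes of an injured mouse spinal cord 3 days post injury (3 dpi). A barcode stands for 1 droplet, which normally holds 1 cell, and a unique molecular identifier (UMI) counts 1 captured RNA molecule. Barcodes were chosen from the 3 dpi library when they held at least 500 UMIs, at least 3 UMIs and at least 5 UMIs per 10000 over 7 genes (Cd3e, Cd3d, Cd3g, Trac, Trbc2, Nkg7 and Klrb1c), no UMI of Cd79a, and fewer than 20 UMIs per 10000 over the microglial and macrophage genes C1qa, C1qb and C1qc. The rule took 71 of the 13584 barcodes with 500 UMIs or more, which is 0.523% of the library (exact binomial 95% interval 0.408 to 0.659). The 7 genes of the rule therefore only describe the choice, and their high levels are no result.

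The study set spinal cords at 3 dpi beside spinal cords of sham mice, as 1 single-cell library per group. Each library pooled C57BL/6 mice aged 8 weeks, 5 male and 5 female, and cells came from a cord segment of 8 mm around the injury site. The labels give no genetic change or drug in either group and do not say how the cord was injured. RNA was captured with the 10X Chromium 3′ kit, version 3. The labels describe no sort of cells before capture. Because each group is 1 library, no test between groups was possible, and the intervals given below cover counting error only.

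Most T cells recognise peptides through a receptor of alpha and beta chains, while a smaller lineage carries a receptor of gamma and delta chains. Either receptor signals through the CD3 chains. CD4 T cells mainly help other immune cells, while CD8 T cells and NK cells kill target cells with perforin and granzymes. NK cells lack the rearranged receptor and read activating and inhibitory receptors in its place. Lymphocytes are scarce in the healthy cord and enter it from the blood after injury.

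The 3 dpi library held 13594 barcodes and 149291783 UMIs, and the sham library held 10138 barcodes and 76889038 UMIs. The 71 barcodes were shallow, with 707 to 26046 UMIs, a median of 1903 UMIs and a median of 850 genes, against a median of 9178 UMIs in the other 13513 barcodes at 3 dpi. Together they held 237626 UMIs. The libraries shared 39 barcode sequences, none of them among the 71. Free RNA was read from 1825 oligodendrocyte barcodes of the 3 dpi library (median 9155 UMIs), which should lack T cell genes. Of them, 0.0548% held a Cd3d UMI and 1.64% a Ccl5 UMI. Levels are UMIs of a gene over all UMIs of a set, scaled to 1000000 (CPM), with exact 95% Poisson intervals in parentheses.

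Of the 71 barcodes, 4 went against the label. These were the 4 barcodes with more than 10000 UMIs, and none of them held a UMI of a CD3 chain, of Trac or of the 7 NK cell genes used below. A pair of them, with 17587 and 26046 UMIs, entered the rule through Nkg7 alone (20 and 32 UMIs). They held 297 and 365 UMIs of Elane, 184 and 461 of Prtn3, 169 and 347 of Ctsg and 86 and 119 of Mpo, which encode proteins of neutrophil primary granules. The other pair, with 18489 and 22706 UMIs, entered through Trbc2 alone (13 and 22 UMIs) and held 100 and 125 UMIs of Tm4sf1, a membrane protein gene, with UMIs of the progenitor gene Nes and the astrocyte gap junction gene Gja1. The 4 barcodes carried 84828 UMIs, 35.7% of all UMIs of the 71, so leaving them out scales every gene that they lack up 1.56-fold. Levels are therefore given for the 71 barcodes and, where it matters, for the 67 barcodes of 10000 UMIs or fewer, a limit chosen after the data were seen. A further pair held many UMIs of another cell class: 1 barcode of 6235 UMIs had 172 fibroblast-gene UMIs per 10000 and 1 of 8458 UMIs had 167 monocyte and macrophage-gene UMIs per 10000.

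Barcodes just inside and just outside the rule were few. Exactly 3 UMIs of the 7 genes were held by 9 of the 71 barcodes, and another 9 barcodes missed the rule with 2 such UMIs, 6 of them with a CD3 chain. A density of 5 to 10 per 10000 was held by 4 of the 71. A further 18 barcodes missed the rule only by a density under 5 per 10000, with a median depth of 26912 UMIs, and 11 of these 18 held no rule gene other than Trbc2. The limit on the C1q genes alone kept out 7 barcodes, 4 of them with Ccl5, and the limit on Cd79a alone kept out 2.

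The same rule took 11 of 10126 barcodes of the sham library, or 0.109% (0.0542 to 0.194). The share at 3 dpi was 4.81 times the sham share (2.53 to 10.1). Without barcodes that held 20 or more UMIs per 10000 of another cell type's list, the neutrophil list aside, 55 barcodes at 3 dpi and 4 in sham remained. Their ratio was 10.25 (3.78 to 38.95). This limit left out 16 of 71 barcodes at 3 dpi and 7 of 11 in sham. The oligodendrocyte list alone had a median of 4.33 UMIs per 10000 at 3 dpi and 26.7 in sham, and its part in this ratio was not tested. Among barcodes of 10000 UMIs or fewer, 67 barcodes at 3 dpi and 8 in sham met the rule, a ratio of 6.24 (2.99 to 15.1). B cell barcodes, chosen in the same way by Cd79a and other B cell genes with no CD3 chain, numbered 76 at 3 dpi (0.560%) and 4 in sham (0.0395%). In such shares a change in T and NK cells cannot be told apart from a change in the cells around them or in how well each cell type survived dissociation.

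T cell barcodes made up most of the set. Counting UMIs over 7 T cell genes (Cd3e, Cd3d, Cd3g, Trac, Trbc1, Trbc2 and Trdc) and over 7 NK cell genes (Ncr1, Klrb1c, Klre1, Klrd1, Klra4, Klra8 and Eomes), with 2 UMIs needed for a side, 57 of 71 barcodes at 3 dpi were T (80.3%, 69.1 to 88.8). Another 5 were NK (7.04%, 2.33 to 15.7), 7 were double with both sides (9.86%, 4.06 to 19.3), and 2 had neither. In sham, 5 of 11 were T, 6 were double and none was NK alone. The 57 T barcodes at 3 dpi include both Trbc2-only deep barcodes, and the 2 with neither side are the Elane barcodes.

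**Figure D1:**
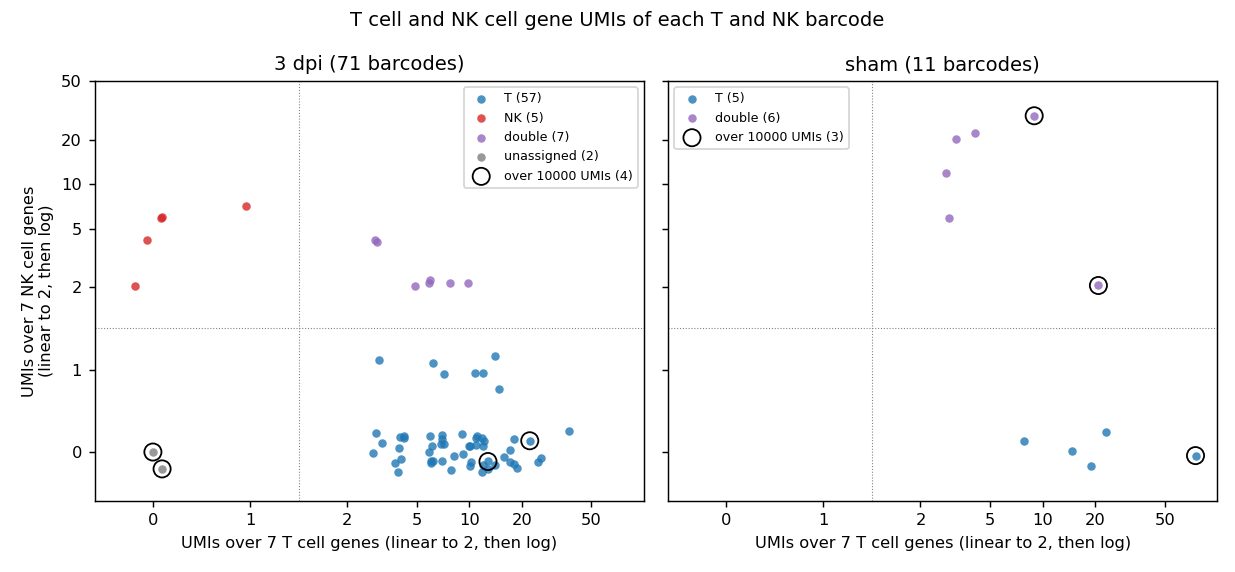
UMIs over 7 T cell genes (x axis) and 7 NK cell genes (y axis) of each T and NK barcode, 3 dpi at left and sham at right, both axes linear to 2 and logarithmic above, points shifted slightly so that they do not overlap. Dotted lines mark the 2-UMI limit, colours the subsets and rings the barcodes over 10000 UMIs. At 3 dpi 57 barcodes lie in the T corner and 5 in the NK corner, while 6 of 11 sham barcodes are in the double corner.

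The double barcodes were of more than 1 kind. All 7 at 3 dpi held a UMI of Trbc1 or Trbc2, the constant regions of the receptor beta chain, but 3 of the 7 held no CD3 chain. Of the 6 double barcodes in sham, 5 held no CD3 chain, and all 5 of these held Gzma. Counting NK barcodes together with double barcodes without a CD3 chain gave 8 of the 71 barcodes at 3 dpi, or 11.3% (4.99 to 21.0), against 5 of the 11 sham barcodes, or 45.5% (16.8 to 76.6). The double barcodes at 3 dpi also include the fibroblast-rich and the macrophage-rich barcode. The macrophage-rich barcode held no CD3 chain, so the 3 dpi share of 11.3% counts it. Double barcodes in sham include those of 11980 and 20076 UMIs, both with many UMIs of another cell type's list. The barcode of 20076 UMIs held 24 Gzma UMIs and no CD3 chain, so the sham share of 45.5% counts it. Another of the 5 sham double barcodes without a CD3 chain held only 1 Gzma UMI.

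The receptor and CD3 genes of the rule were each seen in part of the barcodes. Cd3d, a CD3 chain gene, had 116 UMIs in 47 of the 71 barcodes. Cd3g had 103 UMIs in 41, Cd3e 40 UMIs in 30, and Trac, the alpha chain constant region, 52 UMIs in 34. Any CD3 chain was seen in 56 of 71. Trbc2 had 227 UMIs in 58 barcodes, of which 35 UMIs came from the deep barcodes. The chains that the rule did not use were also present: Trbc1 had 61 UMIs in 28 barcodes (257 CPM, 196 to 330) and Cd247, the CD3 zeta chain, 12 UMIs in 12 barcodes. Trbc1 had 0.242 CPM in the other 3 dpi barcodes, 0 UMIs in the 76 B barcodes and 20 UMIs in 6 of the 11 sham barcodes (307 CPM).

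Cd3d and Cd3g lie next to each other on chromosome 9 and are read in opposite directions, with starts 1355 bases apart in RefSeq's GRCm38.p6. Both genes had a UMI in 34 of the 71 barcodes. The 250 bases before each start are shown because these neighbours carry most of the CD3 counts used to find T cells. Capitals mark ACTTCC, the reverse complement of the ETS-family core GGAAGT, which a search of both strands found at position -199 from the Cd3d start and not in the Cd3g window. The core stood in 19.99% of 27025 mouse promoter windows of this length.
Cd3d, chr9:44981536-44981785, plus strand: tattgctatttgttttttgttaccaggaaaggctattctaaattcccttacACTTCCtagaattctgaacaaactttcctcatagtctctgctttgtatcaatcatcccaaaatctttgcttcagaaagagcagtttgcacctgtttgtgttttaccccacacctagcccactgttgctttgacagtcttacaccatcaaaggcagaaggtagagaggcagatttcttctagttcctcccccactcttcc
Cd3g, chr9:44980432-44980681, minus strand: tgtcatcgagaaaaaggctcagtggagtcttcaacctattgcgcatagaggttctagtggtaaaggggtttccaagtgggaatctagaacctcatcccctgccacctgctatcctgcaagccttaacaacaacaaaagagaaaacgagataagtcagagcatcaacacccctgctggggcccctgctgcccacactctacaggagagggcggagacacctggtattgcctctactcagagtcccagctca

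Levels were then compared with the other 13513 barcodes of the 3 dpi library as log2 of the ratio of CPM + 10, and a gene counted as higher or lower at a 2-fold difference when it reached 20 CPM on at least 1 side. A gene that passed only through its level in the T and NK barcodes had to be higher, so the counts describe and test nothing. Over all 7109 such genes outside the rule, 10.3% were 2-fold higher and 14.9% 2-fold lower, with a median log2 ratio of -0.01. Over the 67 barcodes, 13.2% of 6869 genes were higher and 22.8% lower, with a median of -0.22.

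Genes that carry the T cell receptor signal were higher in the T and NK barcodes. Of 24 measured genes of receptor signalling and accessory molecules, 21 were 2-fold higher and none lower, with a median log2 ratio of 2.87. The adaptor Lat had 51 UMIs in 32 of 71 barcodes, the kinase Lck 49 UMIs in 33, the kinase Txk 43 in 32 and the adaptor Skap1 40 in 27. Lck stood at 206 CPM (153 to 273) in the T and NK barcodes and 0.530 CPM in the others, a log2 ratio of 4.36 (4.97 over the 67 barcodes). The kinase Zap70 had 18 UMIs in 14 barcodes, and the co-stimulatory receptor Cd28 25 UMIs in 15. Fyn, Lcp2 and Ly9 did not reach the 2-fold size, with log2 ratios of 0.42, 0.36 and 0.16. None of these kinases and adaptors had a UMI in the 4 deep barcodes except Fyn, with 4.

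The GIMAP genes encode GTPases that keep resting lymphocytes alive. All 7 measured were 2-fold higher than in the other barcodes, with a median log2 ratio of 3.34. Gimap6 had 85 UMIs in 46 of 71 barcodes, Gimap4 66 in 40 and Gimap3 50 in 28, and none of them had a UMI in the deep barcodes. Against the 76 B barcodes, 1 of 8 measured GIMAP genes was 2-fold higher, none was lower, and the median log2 ratio was -0.12. Over the 67 barcodes 3 of 8 were higher than in B barcodes and none lower, with a median of 0.44. In that comparison 16.7% of 7172 genes were higher and 14.1% lower (15.6% and 19.7% of 6704 genes over the 67 barcodes).

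Transcription factors of T cells were seen beside the receptor genes. Of 18 measured co-receptor and lineage factor genes, 16 were 2-fold higher than in the other barcodes and none was lower (median 2.26). Ets1, a factor of lymphocyte development, had 60 UMIs in 38 of 71 barcodes, the chromatin organiser Satb1 52 in 30, Runx3, a factor of CD8 and NK cells, 28 in 21, and Bcl11b, which fixes T cell identity, 16 in 14. Tbx21, the factor T-bet of cytotoxic and type 1 cells, had 8 UMIs in 8 barcodes. Id2 and Zbtb7b did not reach the 2-fold size (0.11 and 0.16). Against B barcodes, 12 of 19 were higher and 2 lower, and Satb1 and Ets1 were close (log2 ratios -0.55 and 0.07).

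Co-receptors split the T barcodes, although most held none. Of the 57 T barcodes at 3 dpi, 16 held Cd8a or Cd8b1 (28.1%, 16.97 to 41.5), 8 held Cd4 (14.0%, 6.26 to 25.8), none held both, and 33 held neither. Cd8b1, the CD8 beta chain, had 34 UMIs in 17 of 71 barcodes, Cd8a 18 UMIs in 8, and Cd4 1 UMI in each of 8 barcodes. Oligodendrocyte barcodes held no UMI of Cd4 or Cd8a, and 0.110% of them held Cd8b1. Foxp3, the defining factor of regulatory T cells, had 0 UMIs in the 71 barcodes, which allows a share of barcodes with a UMI of up to 4.23% (3 counts over 71). With a median of 1426 UMIs in the Cd4 barcodes, a missing UMI says little about expression.

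The 3 groups of T barcodes defined by Cd8, Cd4 and Trdc UMIs held other genes in different numbers, given here without a test. Icos, a co-stimulatory receptor of activated T cells, was held by 7 of the 8 Cd4 barcodes, 6 of the 8 Trdc barcodes and 3 of the 16 Cd8 barcodes. At least 1 UMI of Ccr7 or Lef1, genes of naive and central memory T cells, was held by 8 of 16 Cd8, 3 of 8 Cd4 and 2 of 8 Trdc barcodes. The Cd8 barcodes were the deepest, with a median of 2573 UMIs against 1426 in the Cd4 and 1806 in the Trdc barcodes.

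A small group of barcodes held gamma-delta and interleukin-17 genes. Trdc, the constant region of the delta chain, had 41 UMIs in 8 of the 71 barcodes, with 9, 1, 4, 5, 7, 7, 6 and 2 UMIs each, and 0 UMIs in the B barcodes. Cd163l1, a scavenger receptor gene of interleukin-17 producing gamma-delta T cells in mice, was in 6 of these 8 and in none of the 63 barcodes without Trdc, which allows a share of up to 4.76% by the limit of 3 counts over 63. Il17a was in 3 of the 8, with 1, 3 and 14 UMIs, and in none of the 63. Il17a had 0 UMIs in the other 13513 barcodes of the library and 0 in the sham barcodes, so all 18 Il17a UMIs among 3 dpi barcodes of 500 UMIs or more lay in 3 Trdc barcodes.

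The same barcodes held a gamma chain gene. Tcrg-C1, a gamma chain constant region, had 15 UMIs in 6 barcodes, all of them with Trdc. Rora, a transcription factor of interleukin-17 producing and innate lymphocytes, was in 7 of the 8, Ctla4 in 4, the chemokine receptor gene Cxcr6 in 3, and Trac in 2. Trdc itself had 2 UMIs in 2 sham barcodes, both of them double, and Tcrg-C1 and Cd163l1 had none in sham. At least 2 UMIs over Trdc, Tcrg-C1, Tcrg-C2 and Tcrg-C4 were held by 7 of 57 T barcodes at 3 dpi and 1 of 5 in sham. With no Trac UMI as a further condition, the counts were 5 of 57 and 0 of 5.

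Cytotoxic genes lay in a minority of the barcodes, and Ccl5 and Gzma had many UMIs in some of them. Ccl5, a chemokine released by activated CD8 T and NK cells, had 371 UMIs in 20 of 71 barcodes, of which 96 were in 1 barcode, and 11 barcodes held 10 or more. Its level was 1561 CPM (1406 to 1729) against 16.6 CPM in the other barcodes, a log2 ratio of 5.89, and 0 UMIs in B barcodes, at least 67.2-fold higher than the 3-UMI floor of the B set. Gzma, a granzyme, had 111 UMIs in 10 barcodes, and Gzmb 40 UMIs in 15. Either granzyme was held by 19 of 71 barcodes and both by 6. Prf1, which encodes perforin, had 9 UMIs in 6 barcodes. Against B barcodes, 8 of 11 granule and death ligand genes were 2-fold higher and none lower. Of 11 measured granule and death ligand genes outside the rule, 8 were 2-fold higher than in the other barcodes and 2 were lower, Ctsc and Lamp1 (log2 ratios -1.83 and -1.97), which are lysosomal genes that phagocytes carry.

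NK receptor genes were few and lay partly in T barcodes. Of 10 measured NK receptor genes outside the rule, 7 were 2-fold higher than in the other barcodes, and Fcer1g, Fcgr3 and Tyrobp, which myeloid cells share, were lower. Klrk1, the activating receptor NKG2D, had 21 UMIs in 13 of 71 barcodes, of which 14 UMIs lay in 7 T barcodes. Klre1, an NK receptor among the genes that set the subsets, had 13 UMIs in 7 barcodes.

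Gzma UMIs lay mainly in the NK barcodes. Of the 111 Gzma UMIs, 61 lay in the 5 NK barcodes, with 11, 19, 24, 4 and 3 each, 47 in 3 double barcodes and 3 in 2 T barcodes. Gzmb had 29 UMIs in 9 T barcodes, 9 in the 5 NK barcodes and 2 in 1 double barcode. It was thus held by all 5 NK barcodes but by 9 of 57 T barcodes, and 14 of its UMIs lay in 1 T barcode. The T barcodes held 161398 UMIs of all genes and the NK barcodes 7763, so UMI counts do not compare levels between these sets. Ccl5 was in all 5 NK barcodes (24, 37, 6, 4 and 1 UMIs), in 11 of 57 T barcodes and in 4 of 7 double barcodes. Fcer1g and Tyrobp, signalling adaptors of NK cells and myeloid cells, were in 4 and 5 of the 5 NK barcodes and in 12 and 13 of the 57 T barcodes. Ltb and Il7r, with 74 and 78 UMIs in the T barcodes, had none in the NK barcodes, whose 7763 UMIs put the 3-UMI floor at 386 CPM. Of the 5 NK barcodes, 1 held 46 S100a8 UMIs, a neutrophil gene.

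The promoters of both granzymes are printed because every NK barcode held both genes, while more T barcodes held Gzmb than Gzma. RefSeq's GRCm38.p6 windows hold the 250 bases before each start. Capitals mark the RUNX core TGTGGT or its reverse complement ACCACA, searched on both strands, found at position -50 for Gzma and at -93 and -34 for Gzmb. The core stood in 14.2% of all 27025 windows and in 5 of the 15 windows matched to the 25 genes with the highest ratio over the other barcodes. Both granzymes are among these 25 genes, so this count is not separate from the windows printed here. The ETS core also stood in 5 of the 15, against 19.99% of all windows. The T-box core GGTGTGA stood in neither granzyme window, in 1 of the 15 and in 3.31% of all windows.
Gzma, chr13:113100982-113101231, minus strand: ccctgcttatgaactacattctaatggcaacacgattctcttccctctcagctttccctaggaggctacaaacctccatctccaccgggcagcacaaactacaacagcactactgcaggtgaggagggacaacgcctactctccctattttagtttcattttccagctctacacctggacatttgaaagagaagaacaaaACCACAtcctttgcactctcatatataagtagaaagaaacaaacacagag
Gzmb, chr14:56262335-56262584, minus strand: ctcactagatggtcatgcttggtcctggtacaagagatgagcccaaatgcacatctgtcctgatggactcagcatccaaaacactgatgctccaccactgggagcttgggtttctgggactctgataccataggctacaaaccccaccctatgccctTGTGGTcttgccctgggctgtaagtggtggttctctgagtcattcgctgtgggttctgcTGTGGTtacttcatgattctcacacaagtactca

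**Figure D2:**
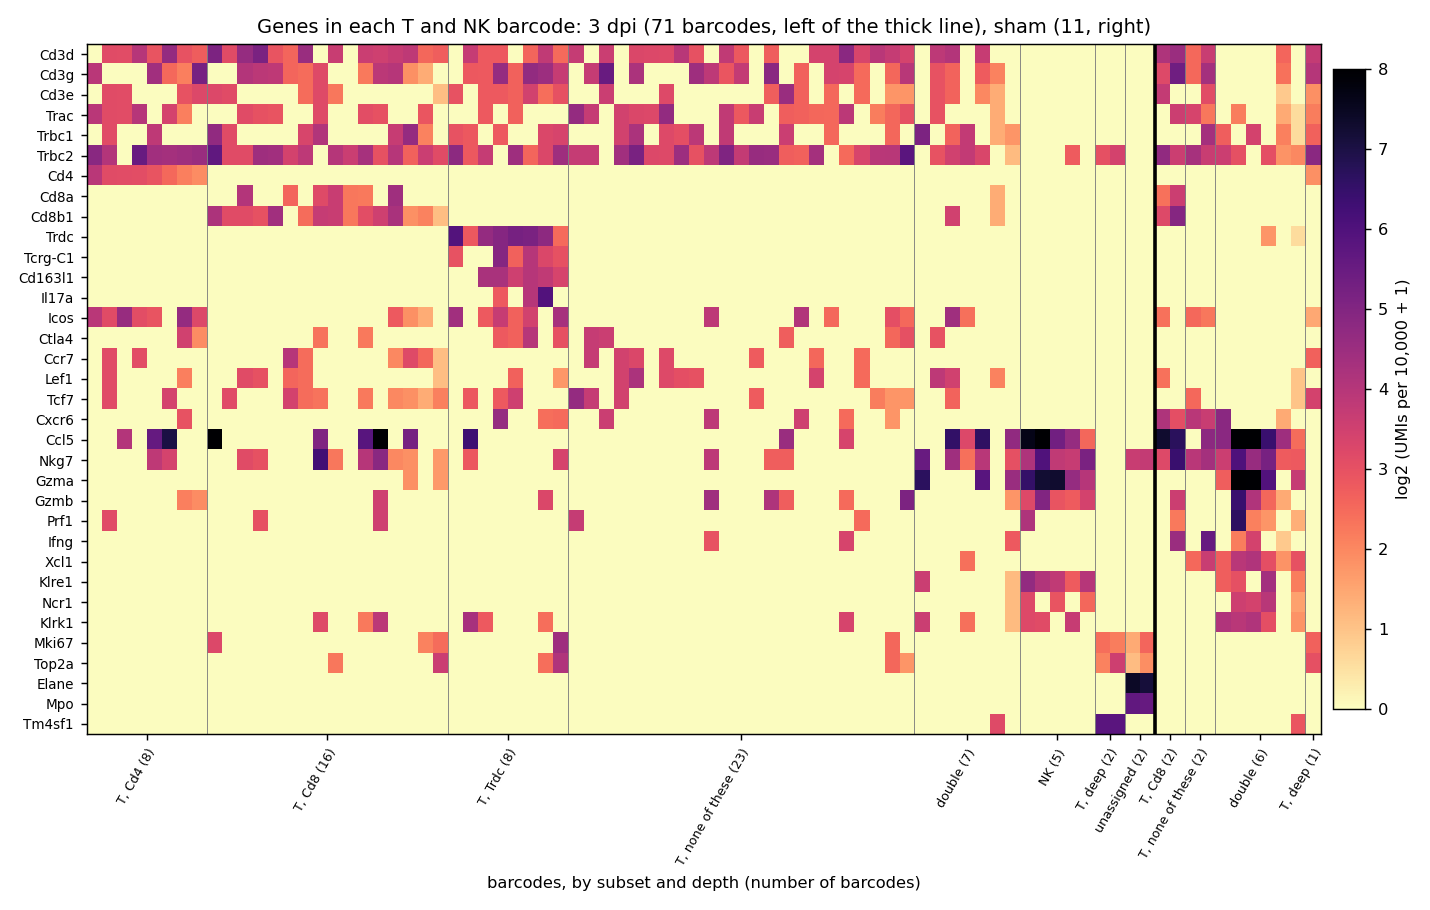
Level of 34 genes (from top to bottom) in each T and NK barcode (columns) as log2 of UMIs per 10000 plus 1, with 71 barcodes at 3 dpi left of the thick line and 11 in sham right of it, ordered by subset and then depth. At 3 dpi Tcrg-C1, Cd163l1 and Il17a appear only within the 8 Trdc columns, Gzma is in all 5 NK columns, and Elane is in 2 columns, both of deep barcodes.

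Resting and cytotoxic genes were mostly held by different barcodes. At least 1 UMI of Ccl5, Gzma or Gzmb was held by 28 of 71 barcodes (39.4%, 28.0 to 51.8), at least 1 UMI of Ccr7 or Lef1 by 25 (35.2%, 24.2 to 47.5), both groups by 4 and neither by 22. All 12 measured naive and central memory genes were 2-fold higher than in the other barcodes (median 2.22), while against B barcodes 5 of 12 were higher and 3 lower (median 0.06). Il7r, the interleukin-7 receptor that keeps resting T cells alive, had 90 UMIs in 39 barcodes (379 CPM, 305 to 466) and 1 UMI in the B barcodes. The homing receptor gene Ccr7 had 21 UMIs in 15 barcodes, all of them T, and 33 UMIs in 25 B barcodes, a log2 ratio of -1.43. The factors Tcf7 and Lef1 had 28 UMIs in 22 barcodes and 24 UMIs in 19. Klf2, the factor that maintains the exit receptor S1pr1, had 172 UMIs in 44 barcodes, and S1pr1 itself 28 in 20.

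Activation receptors were found in part of the T barcodes. Of 13 measured genes of activation and inhibitory receptors, 10 were 2-fold higher than in the other barcodes and 1, Havcr2, was lower (median 1.79). Icos had 54 UMIs in 23 of 71 barcodes (227 CPM, 171 to 297) against 0.148 CPM in the other barcodes, a log2 ratio of 4.55. Ctla4 had 23 UMIs in 14 barcodes, and 8 of the 14 also held Icos. The tumour necrosis factor receptors Tnfrsf18 (GITR) and Tnfrsf4 (OX40) had 32 UMIs in 22 barcodes and 24 in 11, Pdcd1 (PD-1) 17 in 9, and the early activation marker Cd69 58 in 22. The inhibitory receptors Lag3 and Tigit had 0 UMIs in the 71 barcodes.

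Cytokine and chemokine genes were few apart from Ccl5 and Ltb. Of 11 measured genes, 5 were 2-fold higher than in the other barcodes (Ccl5, Ltb, Il17a, Ifng and Cd40lg), 2 were lower, and the median log2 ratio was 0.16, against 1.04 over the 67 barcodes. Ltb, which encodes lymphotoxin beta, had 82 UMIs in 39 barcodes (345 CPM, 275 to 428) and 45 UMIs in 34 B barcodes (348 CPM). Ifng had 8 UMIs in 3 barcodes, 5 of them in the macrophage-rich double barcode. Ccl3 and Ccl4, chemokines of activated myeloid cells and lymphocytes, were lower, with log2 ratios of -3.04 and -3.18. Il2, Il4, Il5, Il10, Il17f, Il21, Il22 and Csf2 had 0 UMIs in the 71 barcodes.

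Receptors for cytokines and for homing filled out the profile. Of 18 measured cytokine receptor and JAK-STAT genes, 12 were 2-fold higher and none lower. Il2rb, the shared interleukin-2 and interleukin-15 receptor chain, had 39 UMIs in 22 barcodes and 0 in B barcodes. Ifngr1, the interferon gamma receptor, had 154 UMIs in 57 of 71 barcodes (648 CPM, 550 to 759) against 79.2 CPM in the other barcodes and 54.2 CPM in B barcodes. Of 19 measured homing and adhesion genes, 12 were higher and 3 lower, S1pr5 and Cx3cr1 among them. Itga4, the alpha chain of the integrin VLA-4 used to enter the central nervous system, had 37 UMIs in 26 barcodes, and the chemokine receptor genes Cxcr6, Cxcr3 and Ccr2 had 16, 9 and 20 UMIs in 9, 8 and 13 barcodes.

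**Figure D3:**
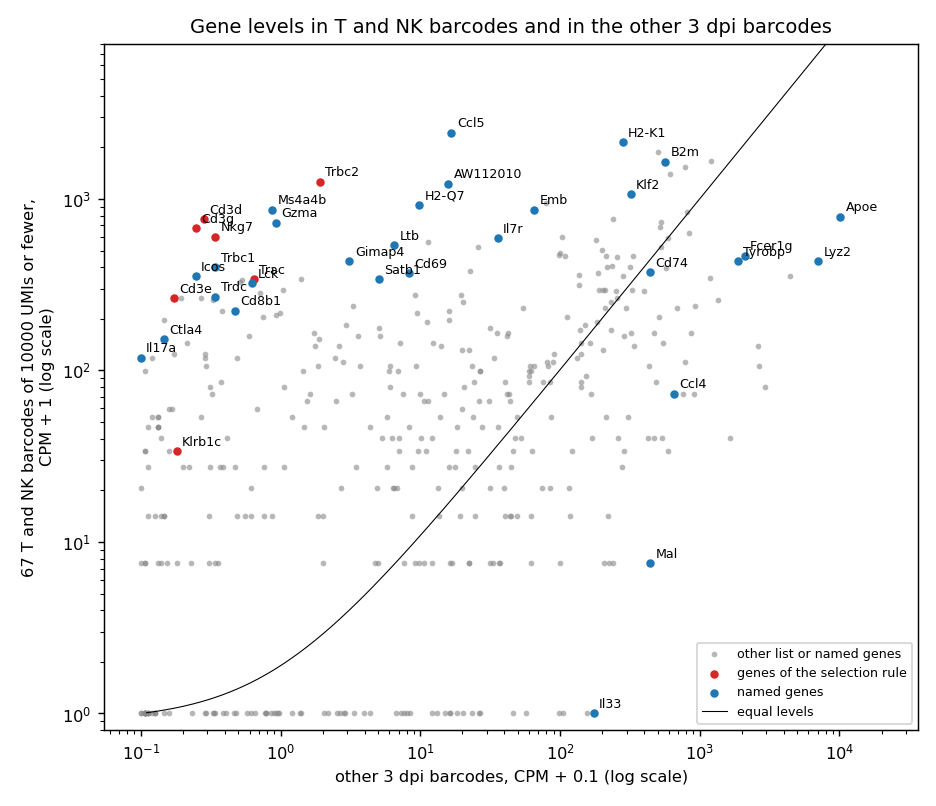
Level of each listed or named gene in the 67 T and NK barcodes of 10000 UMIs or fewer (y axis, CPM + 1) against all other 3 dpi barcodes (x axis, CPM + 0.1), both axes logarithmic, with genes of the selection rule in red, named genes in blue, other listed genes in grey and a line of equal levels. Ccl5, Ms4a4b, Icos and Lck lie far above the line, and Lyz2, Apoe, Mal and Il33 lie below it.

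Among genes outside the rule with 50 CPM or more and held by at least 10% of the barcodes, the highest ratios over the other barcodes were those of Ccl5, Ms4a4b, Gzma, AW112010, H2-Q7, Trbc1, Icos, Gimap4, Ltb and Lat. Ms4a4b, a membrane gene of T and NK cells, had 132 UMIs in 44 of 71 barcodes (556 CPM, 465 to 659) against 0.772 CPM in the others and 0 UMIs in B barcodes. AW112010, a transcript of activated lymphocytes, had 191 UMIs in 42 barcodes. Plac8 also passed the rule for naming, but 172 of its 197 UMIs lay in the deep barcodes, and its log2 ratio of 4.01 was 1.73 over the 67 barcodes. Among the lowest ratios were those of the myelin genes Mal, Mog and Mag, of Il33, of Ptgds, of Fabp5 and of the phagocyte genes Lyz2, Ly86 and Apoe. Il33, an oligodendrocyte and astrocyte alarmin, had 0 UMIs against 174 CPM.

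MHC class I genes were higher than in the other barcodes and class II genes were not. Of 12 measured genes of class I and its peptide loading, 10 were 2-fold higher than in the other barcodes and none lower (median 1.24). Against B barcodes, 3 of 12 class I genes were higher and none lower (median 0.46), where 16.7% of all genes were higher. Over the 67 barcodes 6 of 13 were higher than in B barcodes and none lower (median 0.84), where 15.6% of all genes were higher. H2-Q7 had 143 UMIs in 53 of 71 barcodes, with 602 CPM (507 to 709) against 9.70 CPM in the others. H2-K1 was in 67 of 71 barcodes (1486 CPM against 280.0 CPM) and B2m in 62 (1166 CPM against 564 CPM). Of the 57 Cd74 UMIs, 56 lay in 1 barcode, and 54 of 71 barcodes held no class II UMI. Against B cells, 6 of 7 class II genes were lower (median -4.68), and Igkc, Ly6d and Ebf1, genes of B cells, had 0 UMIs in the T and NK barcodes against 7075, 1386 and 1091 CPM.

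Cell division genes rested in part on the deep barcodes. Against the other barcodes, 2 of 20 cell cycle genes were 2-fold higher over the 71 barcodes, Rrm2 and Mcm6 (median 0.46). Over the 67 none was higher and 4 were lower (median -0.60). Against B barcodes, 13 of 20 were higher and none lower (median 1.27), where 16.7% of all genes were higher. Over the 67, 3 of 18 were higher than in B barcodes and 2 lower (median 0.39), where 15.6% and 19.7% of all genes were. Both Mki67 and Top2a were held by 7 of 71 barcodes but by 3 of the 67. These 3 were T barcodes with a CD3 chain, and held 2, 9 and 4 Mki67 UMIs and 2, 7 and 10 Top2a UMIs. Of 13 interferon response genes, 8 were 2-fold higher (median 1.12). Irf1, an interferon gamma target, had 21 UMIs in 15 barcodes, while Isg15 had 2 UMIs in 2 barcodes. Of 14 early response genes, which dissociation can induce, 1 was 2-fold higher, Btg2 (median 0.23).

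Markers of other cell types were low but present. Leaving aside the neutrophil list, 16 of the 71 barcodes had at least 20 UMIs per 10000 of another cell type's list, and 2 had at least 50. The neutrophil list reached 50 per 10000 in 4 of the 71, of which 3 were among the 67 barcodes of 10000 UMIs or fewer, and its highest sum was 593. It reached 20 per 10000 in none of the 11 sham barcodes, but another list reached 20 per 10000 in 7 of those 11 and 50 in 2. All 11 genes of the monocyte and macrophage list were detected, and the list summed to a median of 7.05 per 10000 (0 to 167) in the T and NK barcodes and 39.0 in the others, and the oligodendrocyte list to 4.33 in the T and NK barcodes and 3.96 in the others. The defining B cell genes Ms4a1, Pax5 and Igkc were at 0. Of the microglia list 8 of 9 genes were detected, with Siglech at 0, and of the neutrophil list 7 of 11, with Ly6g among those at 0. Lyz2, a phagocyte gene, was in 35 of 71 barcodes at 396 CPM against 7032 CPM in the others, and its part in other values was not tested.

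In sham, the 11 barcodes that met the rule had higher levels of several cytotoxic genes. Ccl5 stood at 1561 CPM at 3 dpi and 6648 CPM in sham, a ratio of 0.235 (0.204 to 0.270), and was held by 20 of 71 barcodes at 3 dpi and 9 of 11 in sham. With each barcode thinned to 1000 UMIs, which leaves out 5 shallower barcodes at 3 dpi and none in sham, the expected share with Ccl5 was 28.2% at 3 dpi and 74.6% in sham. Gzma stood at 467 CPM at 3 dpi and 3194 CPM in sham, and Prf1 at 37.9 CPM at 3 dpi and 522 CPM in sham. Ifng stood at 33.7 CPM at 3 dpi and 353 CPM in sham, and Ccl4 at 63.1 CPM at 3 dpi and 1013 CPM in sham. Gzma, Prf1 and Ifng were each held by 5 of 11 sham barcodes, and by 10, 6 and 3 of 71 at 3 dpi. Few barcodes carried the sham levels: 1 held 82 of 208 Gzma, 28 of 34 Prf1 and 135 of 433 Ccl5 UMIs. Another held 76 Gzma and 151 Ccl5 UMIs, and a different barcode held 12 of 23 Ifng UMIs. Xcl1, a chemokine of NK and CD8 T cells that is named here after its values were seen, had 1 UMI in 1 of 71 barcodes at 3 dpi and 34 UMIs in 8 of 11 in sham.

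Other genes ran the other way. Il7r had 90 UMIs in 39 of 71 barcodes at 3 dpi and 1 UMI in 1 of 11 in sham, a ratio of 24.7 (4.32 to 985), and the thinned shares were 38.4% at 3 dpi and 0.802% in sham. Emb, an adhesion gene, had 141 UMIs in 46 of 71 barcodes at 3 dpi and 2 UMIs in 1 of 11 in sham, a ratio of 19.3 (5.25 to 161). Ctla4 and Tnfrsf4 had 23 and 24 UMIs at 3 dpi and 0 in sham, at least 2.10-fold and 2.19-fold higher than the sham floor of 3 UMIs. Icos differed less, with 227 CPM at 3 dpi and 76.8 CPM in sham (ratio 2.96, 1.19 to 9.48). Of the receptor chains outside the rule, Trbc1 stood at 257 CPM at 3 dpi and 307 CPM in sham, a ratio of 0.836 (0.497 to 1.46). Trdc had 41 UMIs in 8 of 71 barcodes at 3 dpi and 2 UMIs in 2 of 11 in sham, a ratio of 5.62 (1.46 to 47.95).

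The sham values rest on 11 barcodes of 1 library, of which 3 held more than 10000 UMIs. Over the 67 barcodes at 3 dpi and the 8 in sham of 10000 UMIs or fewer, the ratio was 0.132 (0.115 to 0.153) for Ccl5 and 0.0858 (0.0672 to 0.109) for Gzma, and Il7r had 90 UMIs at 3 dpi and 0 in sham. The ratio was 0.0413 for Prf1 and 0.0517 for Ifng. In those 8 sham barcodes, 28 of 31 Prf1 UMIs and 12 of 22 Ifng UMIs each lay in 1 barcode. The ratios of Icos, 2.56 (0.831 to 12.8), and Trdc, 5.83 (0.990 to 236), had intervals that include equal levels. Oligodendrocyte RNA also differed: the oligodendrocyte list summed to a median of 4.33 UMIs per 10000 at 3 dpi and 26.7 in sham. Its part in these values was not tested. Subsets also differed, with 80.3% T barcodes at 3 dpi and 45.5% in sham, so gene levels and subset shares cannot be told apart.

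**Figure D4:**
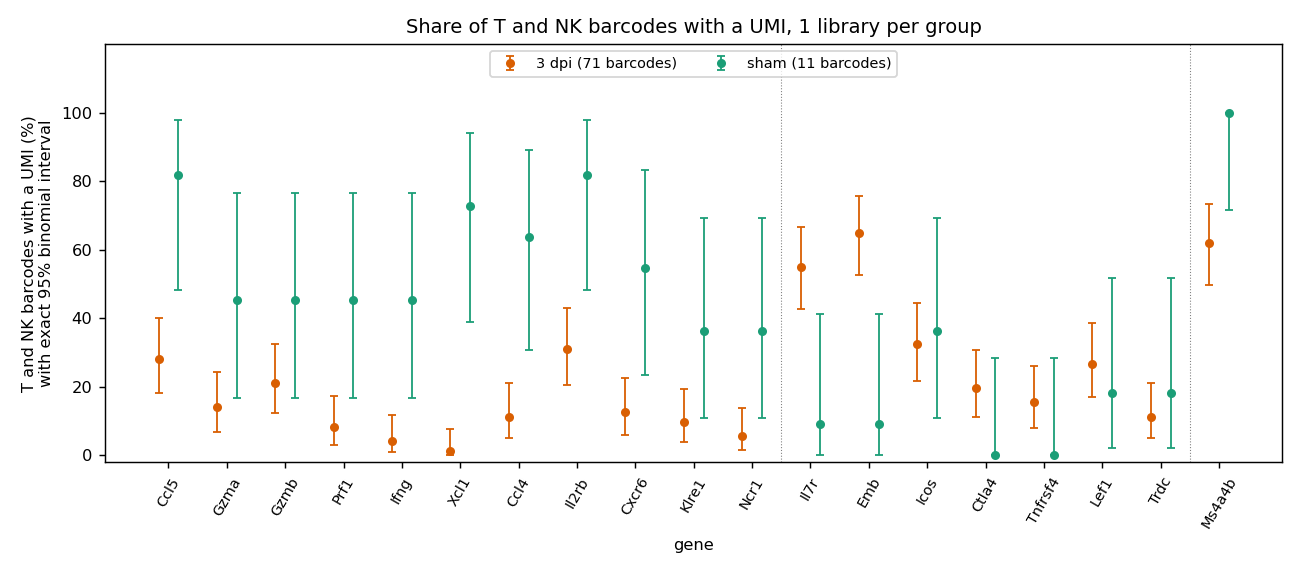
Share of T and NK barcodes with at least 1 UMI of each gene (%), 71 barcodes at 3 dpi (left point of each pair) and 11 in sham (right point), with exact 95% binomial intervals that cover counting error only. Ccl5, Xcl1 and Ccl4 were held by a larger share of the sham barcodes, and Il7r and Emb by a larger share of the 3 dpi barcodes.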

How the data were processed

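The submitters made 2 single-cell libraries with Cell Ranger and Seurat, per the submitters' processing notes, which give no versions. The deposited tables hold UMI counts per gene symbol and barcode, with no normalization. The notes name the build GRCh38, a human build, although the 22480 symbols are those of mouse. The authors' filter on cells is not given in these sources. From these counts, UMIs were summed per set of barcodes and divided by the set's total (CPM). Ratios are log2 of CPM + 10, with a 2-fold size rule and a filter of 20 CPM in at least 1 set. With 1 library per group no p-value was computed, since cells are not replicates. Intervals are exact 95% Poisson, Clopper-Pearson or conditional binomial intervals for counting error only. Shares at equal depth are hypergeometric expectations at 1000 UMIs. No doublet caller was run, and barcodes with 20 UMIs per 10000 of another cell type's list, other than the neutrophil list, were left out as an alternative. Where no barcode held a gene, the upper limit is 3 counts over the number of barcodes. Named genes were the 25 highest and 10 lowest ratios over the other barcodes, the 10 highest and lowest against B barcodes, the 15 highest and lowest between T and NK barcodes (50 CPM and 10% of barcodes on the higher side), and list genes of 20 CPM or more. Other genes, among them those of the 4 deep barcodes and list genes under 20 CPM, were named after their values were seen. The members and lists were chosen with earlier results of these data known. On simulated counts the size rule found 100% of genes raised 4-fold, 83% of genes lowered 4-fold and 2.08% of unchanged genes over the other barcodes, tested on 5972 genes, and 97%, 65% and 10.05% against B barcodes. The simulated counts were Poisson draws from the summed profile of the other 3 dpi barcodes, also for the B comparison. They held no variation between barcodes, so these rates cover counting error only and are not error rates of the real sets. Promoter sequences are RefSeq's, GRCm38.p6. Sums and figures were made with pandas 2.3.3, numpy 2.4.6 and matplotlib 3.10.9, and intervals with scipy 1.17.1, under Python 3.11.15. The joint count of Ccr7 and Lef1 was chosen after the data were seen, and some genes are not reported here.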

Additional observations from a re-analysis of the deposited data

How the results depend on the processing

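No paired analysis was possible because each group is 1 library, so the groups share 1 replicate number. Leaving out barcodes mixed with another cell type (the neutrophil list was not used), the share of T and NK barcodes was 0.405% at 3 dpi and 0.0395% in sham, the share of T barcodes among them 89.1%, and that with neither side 0%. The share with neither side was also 0% without barcodes over 10000 UMIs and 15.2% with every barcode thinned to 1000 UMIs. The share of double barcodes was 21.1% when 1 UMI sufficed for a side and 0% after thinning. Weighting barcodes equally gave 1725 genes lower than in the other barcodes in place of 1061. Scaling by the median of ratios moved all genes by 0.20 on the log2 scale and gave 507 higher and 1233 lower genes in place of 729 and 1061. Of the list medians under all alternatives, 153 moved little and 27 moved. The median of the cytokine list was -0.54 with a C1q limit of 5 per 10000, and that of the cell cycle list -0.45 with equal weights. Both were opposite in sign to the values over the 71 barcodes with the rule as used. The cytokine median was also negative with median-of-ratios scaling (-0.14) and no filter on low values (-0.00097). The cell cycle median was also negative without barcodes over 10000 UMIs. The early response median was negative at a marker density of 10 per 10000 (-0.20) and with equal weights (-0.095), against 0.23 with the rule as used. The limit of 10000 UMIs was chosen after seeing the data. The depth of the barcodes, with a median of 1903 UMIs, limits every statement on a gene that was not seen, and 11 sham barcodes limit the comparison between groups.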

Other observations

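Barcodes with at least 3 Trbc2 UMIs but no CD3 chain, Trac or Trbc1 were also seen outside the T and NK set. At 3 dpi there were 11 such barcodes, with a median of 30257 UMIs, and 1 in sham. All 11 held Tm4sf1 and Nes and 9 held Stmn2. Barcodes with both Elane and Mpo numbered 2 at 3 dpi and 0 in sham, and both held Nkg7.

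Receptor variable segments were rarely captured by the 3′ kit. Of 25 variable segment genes in the table, 6 were seen in the 71 barcodes, with 11 UMIs in 8 barcodes, of which Trdv4, a delta chain segment, had 5 UMIs in 3 barcodes. Cells of both sexes were in the pool: 19 of the 71 barcodes held Xist alone, 14 held Y-linked genes alone, 1 held both and 37 held neither.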
